A study of Mus musculus with 2 samples.

Results

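The genes described here are the 10 that build, load and switch on MHC class II: H2-Aa, H2-Ab1, H2-Eb1, Cd74, H2-DMa, H2-DMb1, H2-DMb2, H2-Oa, H2-Ob and Ciita. Members were taken as the rows of both deposited matrices that carry these symbols, and all 10 of 10 were found among 32285 genes. They were read in single immune cells recovered from the inflamed colon of C57BL/6 mice, all of them in a model of colitis. The study has 1 library labelled CKO and 1 labelled WT, and the series title names loss of RPA1, a subunit of replication protein A, with T cell necroptosis. The sources used here do not give which exons were removed, which promoter drove the deletion, how colitis was induced, the age of the mice or how many were pooled per library.

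MHC class II molecules are heterodimers of an alpha and a beta chain that carry peptides from endosomes to the surface, where CD4+ T cells read them. The chains assemble around the invariant chain, encoded by Cd74, which blocks the groove until proteases cut it down to the CLIP fragment. H2-DM then exchanges CLIP for other peptides, and H2-O holds H2-DM in check in B cells and some dendritic cells. Ciita encodes the transactivator that is recruited by RFX, CREB and NF-Y factors to short boxes in front of class II genes, and dendritic cells, B cells and interferon-gamma-treated macrophages are its best known users. Mice of the H-2b type, such as C57BL/6, lack surface I-E because the Ea gene is defective, so H2-Eb1 RNA in them reports transcription and not a surface I-E molecule. H2-Ea is not analysed here.

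Of the 10 members, 8 lie in 1 block of 224 kb on chromosome 17 between 34092340 and 34316674 (GRCm38, GENCODE vM21 annotation). In map order the block runs H2-Oa, H2-DMa, H2-DMb2, H2-DMb1, H2-Ob, H2-Ab1, H2-Aa and H2-Eb1, and H2-Aa is the member on the minus strand. Ciita (ENSMUSG00000022504) lies on the plus strand of chromosome 16 at 10480059 to 10528418 and has up to 20 exons. RefSeq promoter windows of GRCm38.p6, which run from 250 bases before to 50 bases after a gene's start, were matched for 7 members. The stretch that holds the X and Y boxes is printed for the 6 members where it was found, because it is the sequence these genes share and on which Ciita is recruited. Each stretch reads 5′ to 3′ on the gene's strand, and capitals mark AAC, letters of the X box bound by RFX, and TGATTGG, the Y box bound by NF-Y.
H2-Aa, chr17:34287859-34287912 (-): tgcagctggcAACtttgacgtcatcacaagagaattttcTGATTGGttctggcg
H2-Eb1, chr17:34305768-34305820 (+): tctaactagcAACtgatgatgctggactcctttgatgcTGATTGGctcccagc
H2-DMb1, chr17:34153089-34153142 (+): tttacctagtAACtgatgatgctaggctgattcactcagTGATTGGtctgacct
H2-DMb2, chr17:34145118-34145171 (+): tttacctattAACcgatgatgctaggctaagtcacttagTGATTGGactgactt
H2-Oa, chr17:34092295-34092348 (+): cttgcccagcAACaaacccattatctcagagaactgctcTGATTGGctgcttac
H2-Ob, chr17:34238810-34238860 (+): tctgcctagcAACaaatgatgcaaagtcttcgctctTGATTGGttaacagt

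TGATTGG stood 45 to 92 bases before the RefSeq start in these 6 genes, and AAC began 26 to 29 bases before the TGATTGG. The H2-DMb1 and H2-DMb2 stretches were identical at 47 of 54 positions. Searched on both strands, TGATTGG was present in 7.82% of 32851 promoter windows, and the AAC and TGATTGG pair at this spacing in 0.460%. Letters and spacing were picked from these same promoters, so the pair describes them and is no test. The H2-DMa windows did not hold TGATTGG.

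The libraries differed in size. In CKO there were 11311 barcodes and 57740083 UMIs (unique molecular identifiers, counted RNA molecules), with a median of 3338 UMIs per barcode. In WT there were 2972 barcodes and 18627050 UMIs, with a median of 4083. They shared 6 barcodes. Cells were grouped without using the class II genes, and a group was given a cell type, written as "-like", from fixed marker genes. Each label has 1 library, so no difference here has a replicate check, and the label cannot be told apart from the animal, the preparation or the library. Values are counts per 1e6 UMIs of a class (CPM) with exact 95% Poisson intervals, and ratios are log2 of CKO over WT with exact conditional intervals. All of these intervals cover counting error only. T-like cells had 55.2 CPM of Rpa1 in the library labelled CKO (171 UMIs) and 37.7 CPM in the library labelled WT (105 UMIs), so the labels are not borne out by a lower level. Reads from the 3′ end check a deletion only if it takes that end.

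Dendritic-like (DC-like) cells had the most class II RNA and B-like cells the next most, in both libraries. The 10 members together made up 30052 CPM (29835 to 30269) of the RNA of 275 DC-like cells in CKO and 37114 CPM (36368 to 37870) of 23 DC-like cells in WT. B-like cells had 17198 CPM (17135 to 17261, 5093 cells) in CKO and 19198 CPM (19086 to 19310, 1202 cells) in WT. Monocyte and macrophage-like cells had 8310 CPM (8228 to 8392, 664 cells) in CKO and 5314 CPM (4907 to 5746, 17 cells) in WT. The intervals of these 3 classes did not touch within either library, but they do not measure the spread over cells. In WT, 1 of the 17 monocyte and macrophage-like cells held 72.2% of the class II UMIs of its class.

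**Figure D1:**
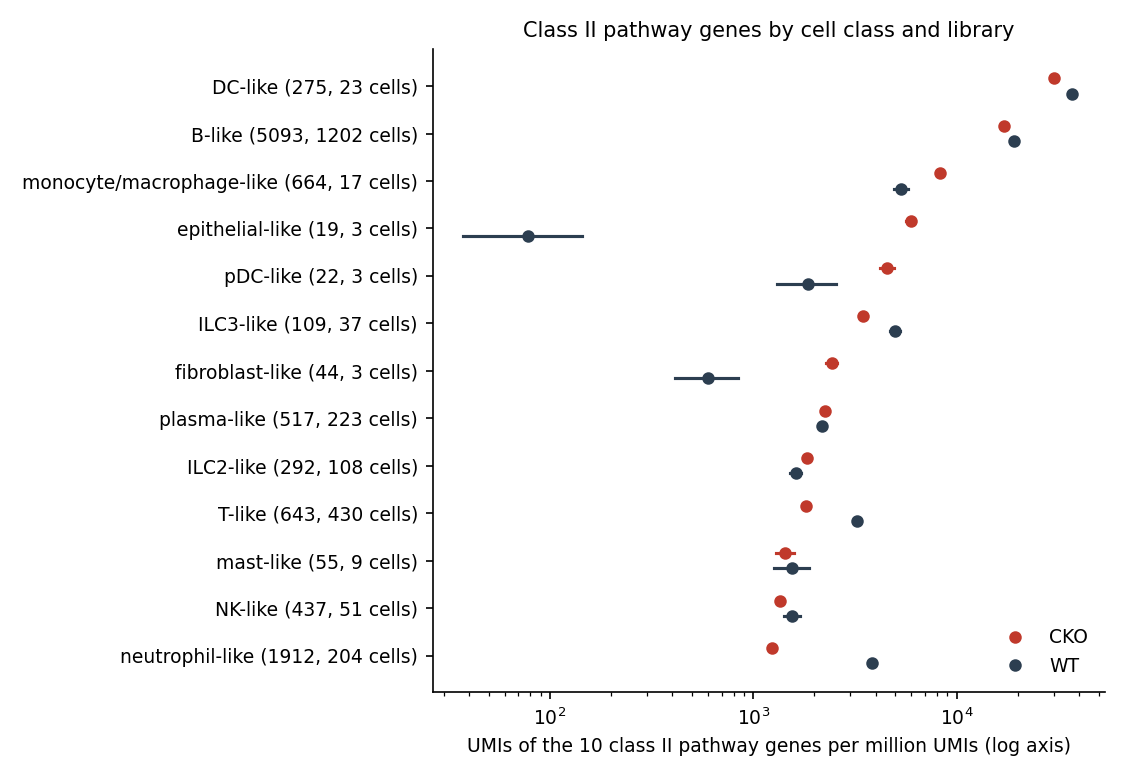
Summed UMIs of the 10 class II pathway genes as CPM (log axis) in each cell class, CKO above WT, with exact 95% Poisson intervals and cell numbers in brackets. DC-like cells stand at 30052 CPM in CKO and 37114 CPM in WT, B-like cells below them, and T-like, NK-like, ILC2-like and plasma-like cells between 1350 and 3233 CPM.

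Classes not known for class II RNA gave the level that free RNA or other cells' RNA can reach. T-like cells had 1809 CPM in CKO and 3233 CPM in WT, neutrophil-like cells 1230 CPM in CKO and 3857 CPM in WT, and NK-like cells 1350 CPM in CKO and 1552 CPM in WT. Smaller classes reached further: fibroblast-like cells had 2426 CPM in CKO (44 cells) and 602 CPM in WT (3 cells), and epithelial-like cells, which can express class II in inflamed gut, had 5961 CPM in CKO (19 cells) and 78.0 CPM in WT (3 cells). The epithelial-like value in CKO is above the monocyte and macrophage-like value in WT. In T-like cells the class II RNA was concentrated in few cells. There, 16 of 643 CKO cells and 42 of 430 WT cells had at least 1% class II among their UMIs, and they held 36.5% of the class II UMIs in CKO and 55.8% in WT. A UMI of a B cell marker was present in 87.5% of those cells in CKO and in 100% in WT. Over all T-like cells, the 12 B cell markers summed to 452 CPM in CKO and 891 CPM in WT, each marker with at least 1 UMI in both. The part of these cells in the T-like level was not tested.

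In B-like cells the class II genes were slightly lower in CKO, and by about the same amount for most members. H2-Aa, which encodes the alpha chain of I-A, stood at 3486 CPM in CKO and 3901 CPM in WT, a log2 ratio of -0.16 (-0.18 to -0.14). H2-Ab1, its beta chain, stood at 2821 CPM in CKO and 3264 CPM in WT (-0.21, -0.24 to -0.19). H2-Eb1, the I-E beta chain, stood at 2218 CPM in CKO and 2553 CPM in WT (-0.20, -0.23 to -0.18). The invariant chain gene Cd74 followed the chains it escorts, with 7001 CPM in CKO and 7705 CPM in WT (-0.14, -0.15 to -0.12).

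The ratios of the peptide editor and its inhibitor lay between -0.14 and 0.02. H2-DMa, the alpha chain of H2-DM, was 440 CPM in CKO and 465 CPM in WT (-0.08, -0.14 to -0.02). Of the genes for its beta chain, H2-DMb2 was 414 CPM in CKO and 452 CPM in WT (-0.13, -0.19 to -0.06), while H2-DMb1 was 102 CPM in CKO and 100.4 CPM in WT (0.02, -0.11 to 0.16). H2-DMb1 and H2-DMb2 transcripts align at 69.2% identity and share a run of 221 bases, so reads from the shared bases cannot be assigned to either. Of the 50-base windows in the last 400 bases of H2-DMb1, where 3′ libraries read, 7.69% were found anywhere in H2-DMb2 transcripts. Between the last 400 bases of the 2 genes, the longest shared run was 28 bases. H2-Oa, the alpha chain of H2-O, was 274 CPM in CKO and 273 CPM in WT (0.00, -0.08 to 0.09). H2-Ob, its beta chain, was 337 CPM in CKO and 370 CPM in WT (-0.14, -0.21 to -0.06). Ciita was 106 CPM in CKO and 114 CPM in WT (-0.10, -0.23 to 0.03), and its interval held 0.

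The sum of the members had a log2 ratio of -0.16 (-0.17 to -0.15) in B-like cells, where the median over the 10819 genes with at least 20 UMIs was -0.07. No member reached the 1.5-fold difference used as a call: 0 of 10 were called higher, against 5.08% of those genes, and 0 of 10 lower, against 12.1%. The members' median was -0.13. Subtracting the level of each gene in T-like cells of the same library left the sum at -0.053. In the same B-like cells, neutrophil markers summed to 278 CPM in CKO and 64.4 CPM in WT (10 of 10 with a UMI in both), and plasma cell markers to 635 CPM in CKO and 1039 CPM in WT (9 of 9 in both). T cell markers summed to 12.0 CPM in CKO and 27.4 CPM in WT (10 of 10 in both), and the part of these markers' cells in the B-like ratios was not tested. The clusters that held most B-like cells differed: the group led by Scd1, Ebf1 and Ighd had 1426 CKO and 130 WT cells, and the group led by Klf2 had 363 CKO and 339 WT cells.

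Within clusters the direction was the same, but the clusters are parts of the same 2 libraries and do not repeat the comparison. The sum was lower in CKO in all 9 B-like clusters with at least 5 cells in each library, with log2 ratios of -0.11 to -0.61 and intervals below 0, which cover counting error only. Among them, the group led by Gm26917 and Dmxl1 was shallow, with a median of 853 UMIs per cell. The Klf2 group had 18381 CPM in CKO and 21140 CPM in WT (-0.20). The Egr3, Myc and Irf4 group, whose leading genes mark recent activation, had 17691 CPM in CKO and 21145 CPM in WT (-0.26). The Ccr6 and Fcrl5 group had the least class II RNA of these 9 in CKO, with 13635 CPM there and 15634 CPM in WT (-0.20). Another group, led by Rgs13 among other genes, came almost wholly from the library labelled WT (2 CKO cells and 63 WT cells) and may be that library and not a type. Ciita itself varied more between B-like clusters than between libraries: it was 245 CPM in CKO and 203 CPM in WT in the group led by the heat shock genes Hspa1b and Hspa1a, and 75.3 CPM in CKO and 61.1 CPM in WT in the Ccr6 group.

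**Figure D2:**
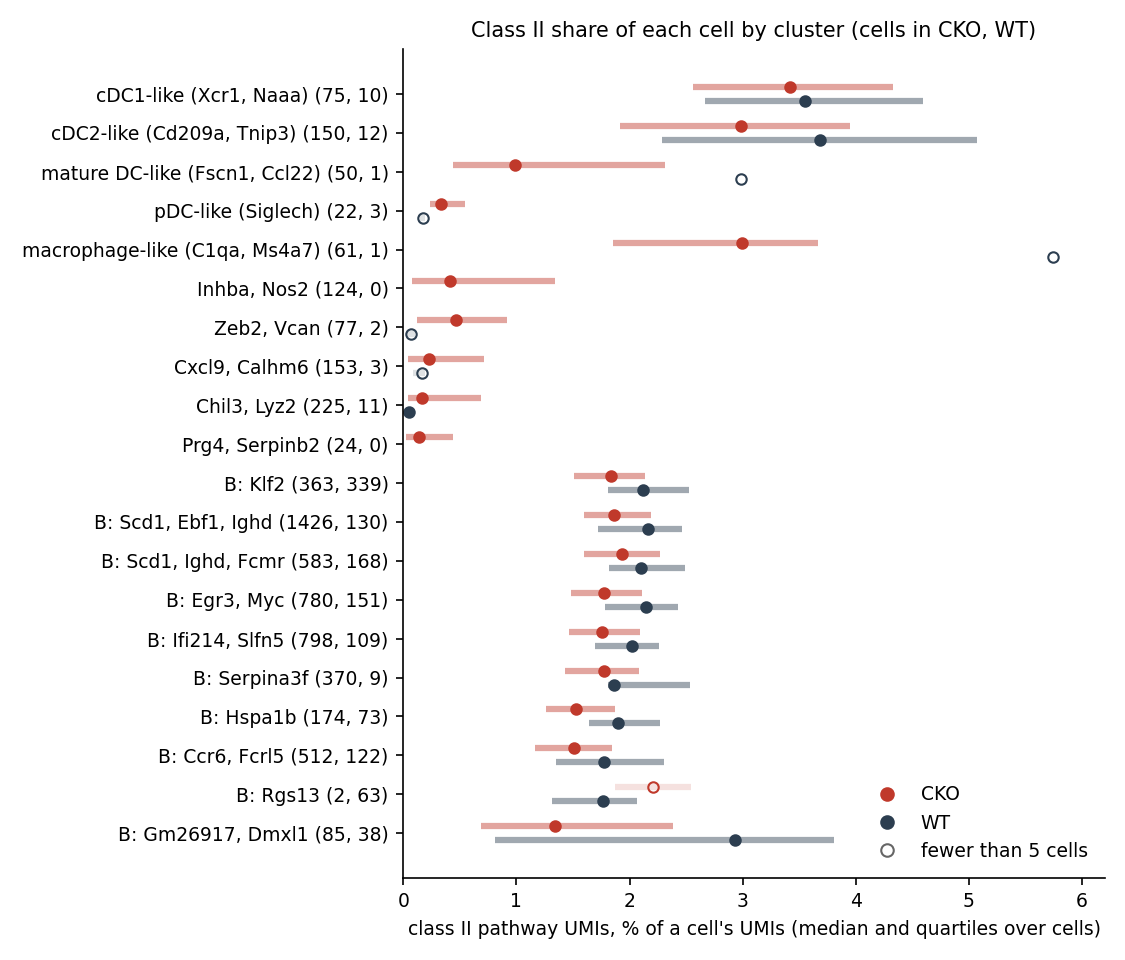
Class II UMIs as a percent of each cell's UMIs (x axis) for each dendritic, monocyte and macrophage, and B-like cluster, CKO above WT. Points are medians, bars run between the quartiles over cells, open points rest on fewer than 5 cells, and brackets give the cells in CKO and WT. The B-like clusters with at least 5 cells in both libraries have their CKO median below their WT median, and the C1qa and Ms4a7 macrophage-like cells sit with the conventional dendritic cells.

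The spread over cells was wider than the difference between libraries. A B-like cell had a median of 1.79% class II UMIs in CKO (quartiles 1.47 and 2.13%) and of 2.05% in WT (1.68 and 2.44%), so the middle ranges overlapped. With each cell thinned to 1000 UMIs, Ciita was seen in 10.3% (9.45 to 11.2%) of 4969 B-like cells in CKO and 10.4% (8.70 to 12.3%) of 1175 in WT, exact binomial intervals. The T-like cells, at 0.474% in CKO and 0.943% in WT, gave the background. Thinning left out 124 B-like cells in CKO and 27 in WT. Without thinning the B-like shares were 26.1% in CKO and 33.5% in WT, at median depths of 2923 UMIs in CKO and 4056 UMIs in WT.

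In DC-like cells the chain genes and Cd74 were lower in CKO, and Ciita was higher. H2-Aa was 5706 CPM in CKO and 7122 CPM in WT (-0.32, -0.39 to -0.25), and H2-Ab1 was 6613 CPM in CKO and 8370 CPM in WT (-0.34, -0.41 to -0.27). H2-Eb1 was 5030 CPM in CKO and 5941 CPM in WT (-0.24, -0.32 to -0.16). Cd74 was 11112 CPM in CKO and 14008 CPM in WT (-0.33, -0.38 to -0.28). These 4 genes carried most of the sum, whose log2 ratio was -0.30 (-0.34 to -0.27). With cells classed by their own markers in place of clusters, which gave 139 CKO and 36 WT cells, the sum stood at 0.36, so the direction in this class depends on how its cells are chosen.

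The H2-DM and H2-O genes had intervals that held 0 in DC-like cells. H2-DMa was 661 CPM in CKO and 677 CPM in WT, and H2-DMb1 was 550 CPM in CKO and 630 CPM in WT. H2-DMb2 was 117 CPM in CKO and 146 CPM in WT. H2-Oa had 236 UMIs in CKO (96.2 CPM) and 23 UMIs in WT (90.6 CPM), and H2-Ob 177 UMIs in CKO (72.2 CPM) and 22 UMIs in WT (86.6 CPM). Counts of this size in WT could not show a change under about the width of their intervals, -0.53 to 0.77 for H2-Oa and -0.91 to 0.45 for H2-Ob.

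Ciita had 232 UMIs in CKO (94.6 CPM) and 11 UMIs in WT (43.3 CPM) in DC-like cells, a log2 ratio of 1.13 (0.26 to 2.15). It was the 1 member of 10 called higher, where 21.9% of 7119 genes were, and 0 of 10 were called lower, where 15.0% were. The members' median was -0.25 and that of all genes 0.04. After thinning to 1000 UMIs, Ciita was seen in 9.33% (6.13 to 13.5%) of 268 DC-like cells in CKO and 4.35% (0.110 to 21.9%) of 23 in WT. The intervals of these shares overlapped. Without thinning the shares were 43.6% in CKO and 17.4% in WT, at median depths of 8459 UMIs in CKO and 8732 UMIs in WT, and 7 CKO cells and 0 WT cells were left out.

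The dendritic subsets had different ratios, with few WT cells in each and intervals that cover counting error only. The cDC1-like group (Xcr1, Naaa), known for cross-presentation, had 35437 CPM class II in CKO (75 cells) and 36254 CPM in WT (10 cells), a ratio of -0.03 (-0.07 to 0.01). Its Ciita was 70.9 CPM in CKO (64 UMIs) and 64.1 CPM in WT (10 UMIs). The cDC2-like group (Cd209a, Tnip3), known for presentation to CD4+ T cells, had 29834 CPM in CKO (150 cells) and 38638 CPM in WT (12 cells), a ratio of -0.37 (-0.42 to -0.32). Its Ciita was 109 CPM in CKO (131 UMIs) and 10.4 CPM in WT (1 UMI), so the DC-like ratio of Ciita rests on a low WT count. The mature group (Fscn1, Ccl22) had 17075 CPM in CKO (50 cells) and 1 cell in WT. In CKO its H2-DMa was 124 CPM, against 669 CPM in the cDC2-like group and 860 CPM in the cDC1-like group, while its Ciita, at 104 CPM, was within the interval of the cDC2-like group (91.5 to 130). Markers of B cells summed to 58.3 CPM in CKO (11 of 12 with a UMI) and 86.6 CPM in WT (9 of 12) in DC-like cells, against 5211 CPM in CKO and 5459 CPM in WT in B-like cells. Neutrophil markers summed to 270 CPM in CKO (10 of 10) and 1398 CPM in WT (9 of 10). Monocyte and macrophage markers summed to 5812 CPM in CKO and 4197 CPM in WT, led by Plac8. In monocyte and macrophage-like cells that list stood at 25360 CPM in CKO and 30600 CPM in WT. The DC markers summed to 3076 CPM in CKO and 2043 CPM in WT in DC-like cells. In the cDC2-like group, over both libraries, monocyte and macrophage markers summed to 8363 CPM and DC markers to 1521 CPM. The part of these markers' cells in the DC-like ratios was not tested.

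**Figure D3:**
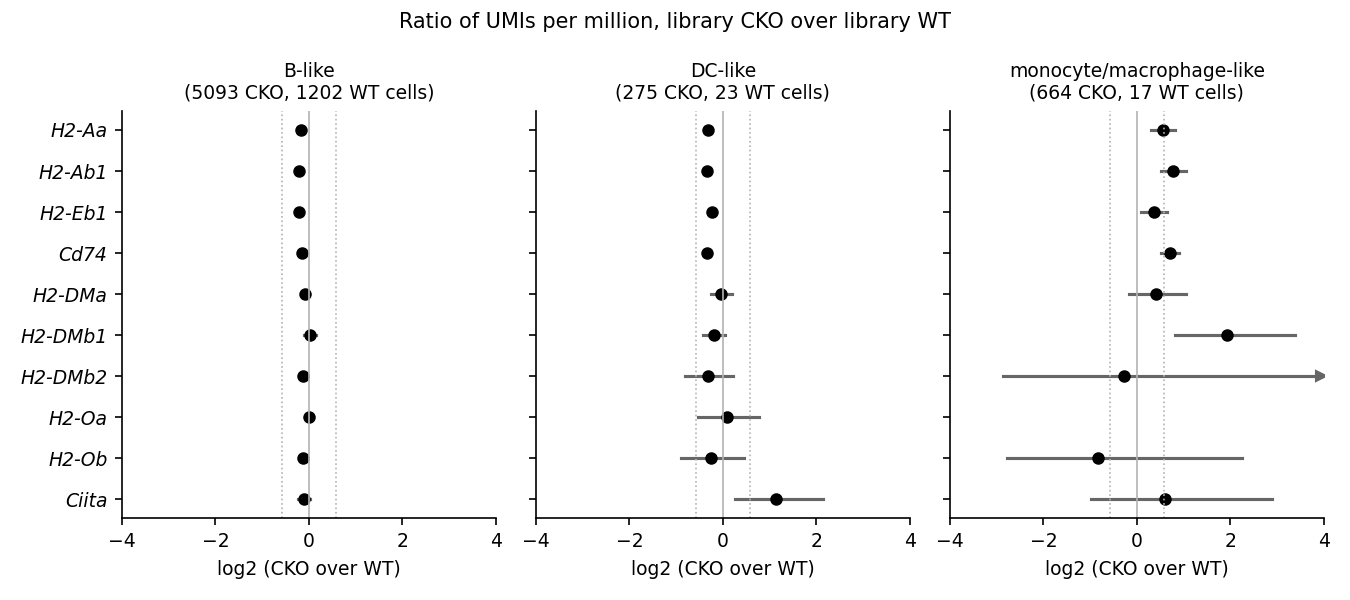
Log2 ratio of CPM, CKO over WT (x axis), for each member in B-like, DC-like, and monocyte and macrophage-like cells. Points are ratios, bars exact 95% intervals for counting error, dotted lines the 1.5-fold difference, and a triangle marks a bar that runs past the axis. B-like points lie within the dotted lines, Ciita is the DC-like point beyond them, and H2-Oa has no point in monocytes and macrophages because it had 0 UMIs in WT.

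The monocyte and macrophage-like comparison rests on 17 WT cells, and 1 of them held most of the WT signal. That cell, in the C1qa group, held 454 of 629 WT class II UMIs (72.2%). With all cells the sum had a log2 ratio of 0.64 (0.53 to 0.76), and without the cell of most class II UMIs in each library it was 2.36. With mixed clusters counted under their leading class, which gave 1194 CKO and 53 WT cells, the ratio was -0.023, so no direction is given for this class. By the 1.5-fold call, 4 of 10 members were higher, where 15.9% of 8030 genes were, and 1 of 10 lower, where 20.5% were. The members' median was 0.48 and that of all genes 0.00. A gene at 0 UMIs in WT was set at 3 UMIs there, or at no difference where that left none. The 0.00 comes from this setting, and the shares of genes called depend on it. The higher ones were H2-Ab1 (0.78), Cd74 (0.70), H2-DMb1 (1.94, 6 WT UMIs) and Ciita (0.59, 3 WT UMIs), and the lower one was H2-Ob (-0.84, 2 WT UMIs). H2-Oa had 34 UMIs in CKO and 0 in WT. The Chil3 and Lyz2 group held most WT cells of the class (11) and also led in CKO (225).

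Within the library labelled CKO, class II RNA differed widely between groups of these cells. The C1qa and Ms4a7 group, with complement genes typical of resident macrophages, had 29920 CPM in 61 cells, close to the cDC2-like group of the same library. The Inhba and Nos2 group had 7980 CPM in 124 cells, the Zeb2 and Vcan group 6232 CPM in 77, and the Cxcl9 and Calhm6 group 5875 CPM in 153. The Chil3 and Lyz2 group, with monocyte genes, had 4829 CPM in 225 cells, and the Prg4 and Serpinb2 group 3002 CPM in 24. Ciita did not follow this order at its top: it was 41.4 CPM (25.3 to 64.0) in the C1qa group, 54.0 CPM (40.6 to 70.5) in the Nos2 group and 51.1 CPM (39.5 to 65.0) in the Cxcl9 group, with overlapping intervals. It was lower, at 19.5 CPM (13.5 to 27.4), in the Chil3 group. Over both libraries Ciita made up 0.664% of 903 class II UMIs in the Zeb2 group and 0.683% of 439 in the Prg4 group.

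Over 20 clusters of B-like, dendritic, monocyte and macrophage-like cells, summed over both libraries, Ciita and the other 9 members had a Pearson correlation of 0.70 on log2 values and a Spearman correlation of 0.47. These points share the libraries and differ in depth, so the values are a description. The Ciita range was 6.42 to 250.2 CPM, and that of the other 9 was 2982 to 35487 CPM.

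The part of the class II RNA taken by the editor genes varied between groups of monocyte and macrophage-like cells. Of the class II UMIs over both libraries, H2-DMa made up 5.93% in the Chil3 group, 5.01% in the Prg4 group, 4.39% in the Cxcl9 group, 2.67% in the Nos2 group, 2.44% in the Zeb2 group and 1.46% in the C1qa group. H2-DMb1 made up 3.53% in the Chil3 group, 2.51% in the Prg4 group, 2.65% in the Cxcl9 group, 2.02% in the Nos2 group, 3.32% in the Zeb2 group and 1.55% in the C1qa group. A lower class II level did not go with a larger H2-DMa part in all cells, since H2-DMa made up 0.721% in the mature dendritic group, against 2.20% in the cDC2-like and 2.35% in the cDC1-like group, and 0.908% in plasma-like cells of CKO. Split by cell in CKO, H2-DMa was 8.77% (8.15 to 9.41%) of class II UMIs in the 474 monocyte and macrophage-like cells under 1% class II, and 1.84% (1.69 to 1.99%) in the 190 cells at or above it. The cells were split on the class II sum, the base of these percents, so a larger part in the low cells is partly built in. A larger part is not a higher level: in CKO H2-DMa was 207 CPM in the cells under 1% and 421 CPM in the others. In T-like cells of that library, the check of free RNA, H2-DMa was 174 of 5602 class II UMIs.

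The balance of H2-O to H2-DM set B-like cells apart from DC-like cells in both libraries, and from monocyte and macrophage-like cells in CKO. H2-Oa and H2-Ob made up 3.55% (3.48 to 3.62%) of class II UMIs in CKO and 3.35% (3.24 to 3.45%) in WT in B-like cells. In DC-like cells they made up 0.560% (0.508 to 0.617%) in CKO and 0.477% (0.348 to 0.638%) in WT. Per 100 H2-DM UMIs there were 63.8 H2-O UMIs in CKO and 63.2 in WT in B-like cells, and 12.7 in CKO and 12.2 in WT in DC-like cells. In monocyte and macrophage-like cells of CKO the figure was 3.54.

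The share of H2-DMb UMIs taken by H2-DMb2 differed between classes. H2-DMb2 made up 80.2% (79.4 to 81.1%) of H2-DMb1 and H2-DMb2 UMIs in CKO and 81.8% (80.5 to 83.1%) in WT in B-like cells. In DC-like cells it made up 17.6% (15.7 to 19.5%) in CKO and 18.8% (13.6 to 24.9%) in WT, and in monocyte and macrophage-like cells of CKO 3.46% (2.39 to 4.82%). Within the DC-like class, over both libraries, the H2-DMb2 share was 54.7% in the mature group, 18.4% in the cDC2-like group and 14.1% in the cDC1-like group. T-like cells had shares near those of B-like cells, 72.7% (65.3 to 79.4%) in CKO and 80.9% (75.7 to 85.4%) in WT. The 2 genes differ in length and in the bases they share, so the share is compared between classes and not read as a ratio of molecules.

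**Figure D4:**
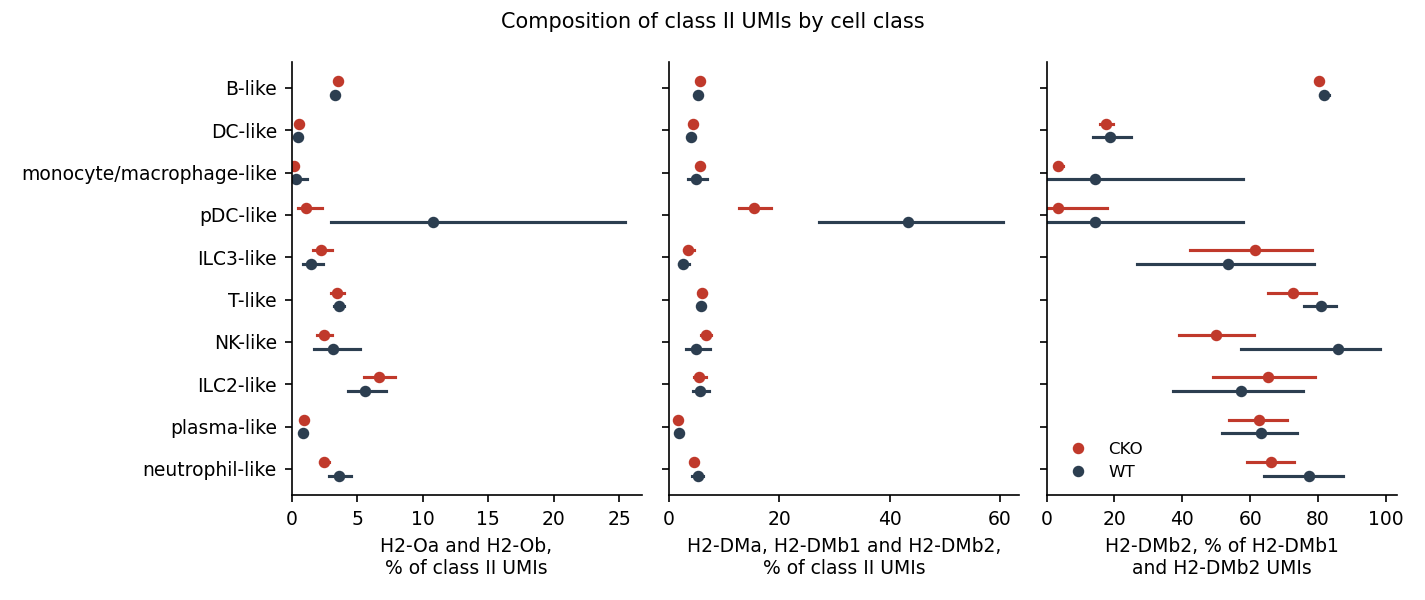
Shares of class II UMIs taken by H2-O genes (left) and H2-DM genes (middle), and of H2-DMb UMIs taken by H2-DMb2 (right), in percent on the x axes, by class, CKO above WT, with exact 95% binomial intervals. B-like cells are at 3.55% H2-O in CKO and 3.35% in WT, DC-like cells are under 1%, and T-like cells lie near B-like cells in all 3 panels.

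Several classes outside the main presenting cells had class II RNA of another make-up than T-like cells. In plasma-like cells, the antibody-secreting end of the B lineage in which Ciita is known to be silenced, Cd74 made up 76.3% (75.7 to 76.9%) of class II UMIs in CKO and 77.8% (76.9 to 78.6%) in WT. In T-like cells Cd74 made up 39.1% (37.9 to 40.4%) in CKO and 39.9% (38.9 to 40.9%) in WT. Cd74 was 1715 CPM in CKO and 1690 CPM in WT in plasma-like cells, and Ciita was 2.47 CPM in CKO and 3.33 CPM in WT. The T-like level of Cd74 was 708 CPM in CKO and 1289 CPM in WT, below the plasma-like level in both libraries, though by less than 1.5-fold in WT. H2-Aa, at 121 CPM in CKO and 99.1 CPM in WT, was below its T-like level of 353 CPM in CKO and 642 CPM in WT. Plasma-like cells were deeper, with medians of 16177 UMIs in CKO and 20661 in WT, against 4038 and 5137.5 in T-like cells. As counts, H2-Aa had 977 UMIs in 517 plasma-like and 1093 in 643 T-like cells of CKO. In WT it had 447 in 223 plasma-like and 1789 in 430 T-like cells. The part of depth in these CPM differences was not tested.

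ILC2-like cells, type 2 innate lymphoid cells, had a higher share of H2-Oa among their class II UMIs than T-like cells. Among their cells under 1% class II, H2-Oa made up 8.27% (6.65 to 10.1%, 84 UMIs in 285 cells) of class II UMIs in CKO and 9.92% (7.12 to 13.4%, 38 UMIs in 104 cells) in WT. In T-like cells under 1% it made up 1.52% (1.14 to 1.98%) in CKO and 1.48% (1.13 to 1.91%) in WT. The H2-Oa level in those ILC2-like cells was 90.7 CPM in CKO and 62.4 CPM in WT, against 18.2 CPM in CKO and 24.5 CPM in WT in those T-like cells. The high share was not shown to be particular to ILC2-like cells: in mast-like cells under 1% H2-Oa made up 4.74% (2.19 to 8.80%, 9 UMIs) in CKO, an interval that overlaps the ILC2-like one, and 6.25% (1 UMI) in WT, and in the 3 pDC-like cells of WT it made up 10.8% (4 UMIs), against 1.31% in CKO. Its partner H2-Ob had 27 UMIs in CKO and 11 UMIs in WT in all ILC2-like cells, where H2-Oa had 90 UMIs in CKO and 49 UMIs in WT. After thinning to 1000 UMIs, H2-Oa was seen in 12.0% (8.41 to 16.4%) of 275 ILC2-like cells in CKO and 6.54% (2.67 to 13%) of 107 in WT, and in 1.74% of T-like cells in CKO and 3.30% in WT. In WT the interval of the ILC2-like share overlapped that of T-like cells (1.82 to 5.48%). The unthinned ILC2-like shares were 24.7% in CKO and 32.4% in WT, and thinning left out 17 CKO cells and 1 WT cell.

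**Figure D5:**
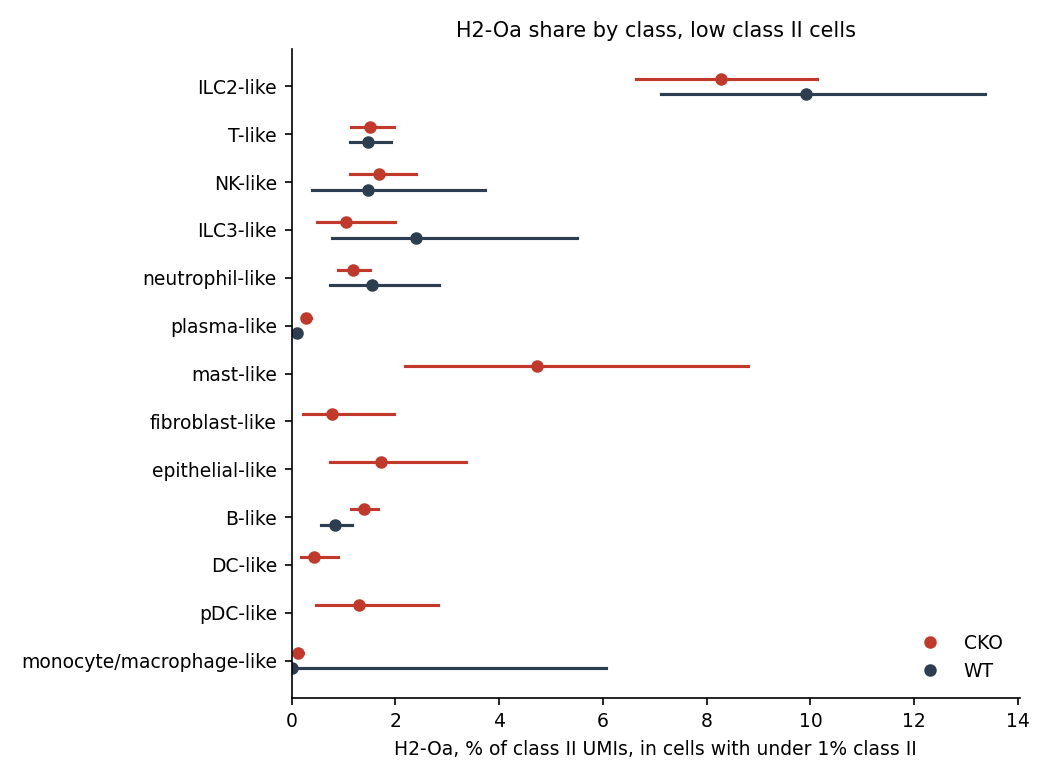
H2-Oa as a percent of class II UMIs (x axis) in the cells of each class with under 1% class II, CKO above WT, with exact 95% binomial intervals. ILC2-like cells are at 8.27% in CKO and 9.92% in WT, and every other class plotted is under 5%, mast-like cells of CKO highest among them at 4.74%. Classes with fewer than 50 class II UMIs in these cells of a library have no point.

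ILC3-like cells, type 3 innate lymphoid cells, a class known to include cells with surface class II, had 3473 CPM in CKO and 4999 CPM in WT. Most of it sat in few cells: 10 of 109 CKO cells held 51.4% of the class II UMIs, and 8 of 37 WT cells held 82.4%. A B cell marker UMI was present in 60.0% of these cells in CKO and 62.5% in WT, and B cell markers summed to 1320 CPM in them in CKO and 1201 CPM in WT. In the ILC3-like cells under 1% class II, such a UMI was present in 43.4% in CKO and 55.2% in WT, so its presence hardly set the cells apart in WT. The B cell marker sum in those low cells was 318 CPM in CKO and 263 CPM in WT. The part of B cell RNA in this level was not tested. The pDC-like cells (Siglech), plasmacytoid dendritic cells, had 4543 CPM in CKO (22 cells), and in the 3 WT cells 37 UMIs.

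The other genes of the pathway were read as lists in the same classes, and in B-like cells their counts stand against 5.08% of all genes called higher and 12.1% lower. There, 0 of 7 genes for the RFX, NF-Y and CREB factors that recruit Ciita were called higher or lower, with a list median of -0.07, equal to that of all genes. Of 12 genes that act upstream of Ciita, 1 was called higher and 0 lower, with a median of 0.13. That gene was Irf1, an interferon-induced transcription factor, at 250 CPM in CKO and 148 CPM in WT (0.76, 0.65 to 0.86). Below the call, Irf8, a transcription factor of B and myeloid cells, was 649 CPM in CKO and 475 CPM in WT (0.45). Of 3 Ciita repressors 1 was called higher, Zbtb32 with 24 UMIs in CKO and 4 in WT, and Socs1, an inhibitor of interferon signalling, had a ratio of 0.53 (0.32 to 0.74).

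Of 10 antigen-processing genes in B-like cells, 0 were called higher and 1 lower, with a median of 0.05, and with 12.1% of all genes called lower this count does not mark the list out. Ctse, which encodes the endosomal protease cathepsin E, was 7.18 CPM in CKO and 36.2 CPM in WT, a ratio of -2.33 (-2.67 to -2.0). None of 7 costimulatory genes was called (0 higher and 0 lower, median 0.03), nor was either gene read for surface turnover, where March1, the ligase that removes class II from the surface, was at -0.05 and Cd83, which opposes it, at 0.01. H2-Eb2, a further class II beta gene, was at -0.17 (-0.29 to -0.05).

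In DC-like cells, 3 of 11 genes upstream of Ciita were called higher and 1 lower, with a median of 0.01. Among the higher ones, Irf1 was 332 CPM in CKO and 154 CPM in WT (1.11, 0.65 to 1.61), and Irf8, which the cDC1 subset needs to form, was 694 CPM in CKO and 461 CPM in WT (0.59, 0.32 to 0.87). The lower gene was Usf1, with 9 UMIs in WT (-0.86, -1.90 to 0.36). Of the 7 RFX, NF-Y and CREB genes, 1 was called in each direction, Nfyc with 2 WT UMIs and Nfya with 12, with a median of -0.10. The 9 processing genes had 3 called higher, 0 called lower and a median of 0.10: Ctsl and Ctsd, with 1 and 4 WT UMIs, and Ctsh at 0.71 (0.31 to 1.13). The 8 costimulatory genes had 2 called higher, 0 called lower and a median of 0.08. The higher ones were Tnfsf9, which encodes the ligand of 4-1BB, at 142 CPM in CKO and 59.1 CPM in WT (1.27, 0.53 to 2.12), and Cd40, the receptor for T cell help, at 217 CPM in CKO and 110 CPM in WT (0.98, 0.43 to 1.58). Neither of 2 Ciita repressors nor either of 2 turnover genes was called. H2-Eb2, with 6 UMIs in WT, was called lower at -0.65 (-1.90 to 0.89). With 21.9% of all genes called higher and 15.0% called lower in this class, these counts do not mark the lists out.

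In monocyte and macrophage-like cells, 15.9% of all genes were called higher and 20.5% lower. There, 3 of 11 genes upstream of Ciita were called higher and 0 lower, with a median of 0.00. That median is Irf4, which had 0 WT UMIs and was set at no difference. Among the higher ones were Ifngr1 with 8 WT UMIs (0.75) and Usf1 with 1 WT UMI (0.74). Of 9 processing genes 0 were called in either direction, with a median of 0.02. Among 6 RFX, NF-Y and CREB genes, 1 was higher (Nfyc, 1 WT UMI) and 0 lower. The 7 costimulatory genes had 1 called higher, Tnfsf9 (0.68, -0.16 to 1.69), and 1 lower, Pdcd1lg2 with 1 WT UMI. Of 3 Ciita repressors and 2 turnover genes 0 were called.

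The genes outside these lists whose levels went most nearly with the summed members were Zbtb18 (Pearson 0.90), BC028528 (0.87), Plekho1 (0.87), Uvrag (0.85) and Erlin1 (0.83), over 20 class and library profiles of log2(CPM + 10) and among 7974 candidate genes. These profiles share 2 libraries and differ in depth, and B-like and dendritic classes hold the high values. Zbtb18, a transcriptional repressor, was 86.4 CPM in CKO and 110 CPM in WT in DC-like cells, 51.5 CPM in CKO and 39.8 CPM in WT in B-like cells, and 12.0 CPM in CKO and 6.46 CPM in WT in T-like cells. On the same measure the members, each of which is part of the sum, had correlations of 0.98 for Cd74 and H2-Ab1, 0.97 for H2-Eb1, 0.95 for H2-Aa, 0.91 for H2-DMa, 0.88 for H2-DMb1 and 0.80 for Ciita. H2-DMb2 (0.68), H2-Ob (0.61) and H2-Oa (0.60) followed the sum least.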

How the data were processed

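UMI counts per gene and cell barcode were used as deposited, whole numbers without normalization. Cell Ranger is named as version 6.0.1 in the matrix headers and as version 5.0.0 in the submitters' processing notes, which also list Seurat 3.2.3 and mm10. The 10x 3′ v3.1 kit was used, per the labels. The sources used here do not say how barcodes were called.

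Barcodes with fewer than 200 genes or over 20% mitochondrial UMIs were left out, which kept 11155 in CKO and 2925 in WT. Scrublet in scanpy 1.11.5 marked 213 cells in CKO (1.91%, where 995 doublets were expected) and 1 in WT (0.034%, where 68 were), so doublets remain, and in WT the caller did not work. Cells kept numbered 10942 in CKO and 2924 in WT. Both libraries were clustered together without the 10 members and H2-Eb2 (2000 variable genes, 30 components, 15 neighbours, Leiden resolution 1, and 1500 genes with 20 components within compartments), with no batch correction.

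Clusters were named from fixed marker lists with at least 3 detected markers. A cluster with markers of another lineage was kept apart as mixed: 809 cells in CKO and 610 in WT. The thresholds of this naming (mean marker score 0.3, median score of another lineage 0.15), the split at 1% class II and the promoter letters were set after the data were seen. The members and lists were chosen with earlier results of these data known.

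UMIs were summed per class and library. Genes with at least 20 UMIs over both libraries were read, and a call is a 1.5-fold difference. A gene at 0 in 1 library was set at 3 UMIs there, and at no difference where that left none. Intervals were computed with scipy 1.17.1 and cover counting error only, and the ratios and their intervals were tested on simulated data. Of 47 listed symbols 44 were matched. Named genes are the members, up to 4 genes of each list by size of ratio, and the 5 genes most like the summed members among genes with at least 500 UMIs. Named genes beyond these are those that lead clusters. Some genes that meet this rule are counted in their lists but not reported here by name. Symbols were matched to GENCODE vM21 and RefSeq tables of GRCm38 for positions and promoters. For each class 14 alternatives were run.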

Additional observations from a re-analysis of the deposited data

How the results depend on the processing

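Values are log2 ratios of CKO over WT for the summed members, and counts of members past 1.5-fold. The share of all genes past 1.5-fold is not given here for each alternative. The counts are therefore not read as a result about the members. No paired analysis was possible because each label has 1 library. In B-like cells the sum kept its direction under all 14 alternatives, most weakly at -0.053 with the T-like level subtracted. It was -0.21 as a mean over cells or with clusters weighted alike, -0.22 when thinned and -0.19 with cells classed by their own markers. In DC-like cells it was -0.37 as a mean over cells or thinned, -0.25 with no doublet removal or clusters weighted alike, -0.26 with the T-like level subtracted, and 0.36 with cells classed by their own markers (139 CKO and 36 WT cells), where the direction turned. There, 2 members were higher when thinned and 3 with own markers or the T-like level subtracted. In monocyte and macrophage-like cells the direction was not stable: -0.28 with no doublet removal, -0.16 with own markers, -0.22 at resolution 2 and -0.023 with mixed clusters counted, against 0.77 as a mean over cells, 0.48 thinned, 1.47 weighted, 1.55 with the T-like level subtracted and 2.36 without the cell of most class II UMIs in each library. Members higher there numbered 1 when thinned or with no doublet removal, 2 with own markers or at resolution 2, 0 with mixed clusters counted and 7 with the T-like level subtracted. Members lower numbered 0 as a mean over cells or with the T-like level subtracted, 3 with no doublet removal, and 2 with own markers, at resolution 2 or with mixed clusters counted. In that class H2-Ob was 0.41 as a mean over cells. H2-Ab1 was -0.25 with no doublet removal, -0.10 with own markers and -0.19 at resolution 2. Cd74 was -0.16, -0.24 and -0.10 under the same changes and -0.0052 with mixed clusters counted. Thinned to 2000 UMIs, Ciita was seen in 18.6% of B-like cells in CKO and 19.0% in WT, 15.6% of DC-like cells in CKO and 0% in WT, and 6.89% of monocyte and macrophage-like cells in CKO. Of 417 values of single members 324 stayed within the counting interval, 85 moved further and 8 turned, and of 84 values of the pathway lists 71 kept their count and 13 moved. H2-DMb2, H2-Oa and H2-Ob had no value in monocyte and macrophage-like cells once the higher T-like level was subtracted. Counting mixed clusters was added after the data were seen. The causes of these shifts were not tested. The WT values rest on 23 DC-like and 17 monocyte and macrophage-like cells.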
